A study of Homo sapiens with 3 samples.

Results

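The Wnt and β-catenin genes described here were 10 genes fixed by name, namely CTNNB1, APC, AXIN1, AXIN2, NKD1, LGR5, TCF7, TCF7L2, LEF1 and GLUL. They were found on the array through the RefSeq transcript named for each probe, which gave 16 of 34127 gene probes and 10 of 19740 named genes. Their mRNA was measured in Huh7 cells, an established human hepatoma line, which were left untreated or received 50 μM or 100 μM of the plant phenolic chlorogenic acid (CA) for 24 h. The study examined CA for its effect on the differentiation of cancer cells, and the comparisons ask which transcripts differed from untreated cells at each dose. One-colour Agilent arrays were used with Cy3 as the label, 1 per group, so that 3 arrays were available, no group had a replicate and no test could be made. All differences given here are between single arrays.

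In the Wnt pathway a secreted Wnt ligand binds a Frizzled receptor and an LRP co-receptor at the cell surface. Without it, a cytoplasmic destruction complex built on APC and AXIN1 marks β-catenin, the product of CTNNB1, for degradation, and with it β-catenin accumulates, enters the nucleus and acts with the TCF/LEF DNA-binding factors on target genes. In liver the pathway is known for the zonation of metabolism, where it keeps glutamine synthetase on in hepatocytes around the central vein, and for mutations of CTNNB1, AXIN1 and APC in liver tumors.

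CTNNB1 and APC were each covered by a pair of probes that carry different transcript accessions, and the probes of each gene gave different ratios (below). For orientation, the 250 bases before their transcription starts are shown from RefSeq, assembly GRCh38.p14, where CTNNB1 has 1 listed start and APC has 2. All 3 lie on the plus strand and are written 5′ to 3′. Capitals mark the letters TATAA and GGGCGG (a GC box) on either strand.
CTNNB1, chr3:41199255-41199504: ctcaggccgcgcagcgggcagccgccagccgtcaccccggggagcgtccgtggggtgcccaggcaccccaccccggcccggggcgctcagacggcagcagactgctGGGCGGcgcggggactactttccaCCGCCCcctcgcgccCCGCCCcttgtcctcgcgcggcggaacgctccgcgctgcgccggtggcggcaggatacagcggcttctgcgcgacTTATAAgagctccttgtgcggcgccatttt
APC, upstream start, chr5:112707248-112707497: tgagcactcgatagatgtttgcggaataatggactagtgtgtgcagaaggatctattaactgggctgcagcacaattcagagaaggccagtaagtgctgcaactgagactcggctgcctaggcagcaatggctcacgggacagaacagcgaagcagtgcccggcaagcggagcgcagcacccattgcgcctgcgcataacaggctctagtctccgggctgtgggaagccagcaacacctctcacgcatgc
APC, downstream start, chr5:112737635-112737884: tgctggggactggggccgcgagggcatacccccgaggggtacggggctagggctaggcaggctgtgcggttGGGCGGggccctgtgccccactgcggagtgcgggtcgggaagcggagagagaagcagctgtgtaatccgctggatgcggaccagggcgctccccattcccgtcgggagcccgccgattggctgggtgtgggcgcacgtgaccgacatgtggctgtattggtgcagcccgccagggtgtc

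RefSeq windows from 250 bases before to 50 bases after a start were listed for 7 of the 10 genes, with 12 windows in all, and none was listed for AXIN2, NKD1 or LGR5. The core letters of the TCF/LEF site, CTTTGAT, read on both strands, were in 0 of these 12 windows and in 919 of all 35116 windows (2.62%). The shorter run CTTTGA, which lies inside the longer one, was in 0 of 12 and in 12.9% of all windows. GGGCGG was in 8 of 12 and in 45% of all, and TATAA in 2 of 12, those of CTNNB1 and of 1 TCF7 start, and in 20.4% of all. These are matches of letters in short windows and say nothing on binding.

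Each array carried 43118 spots of gene probes, and 70.4% to 71.1% of those that carried no outlier flag exceeded background clearly (well above background below). Intensities below are the processed signal of the scanner software, not scaled between arrays, and the ratios are on the log2 scale after each array was scaled to its 75th percentile, which was 1059 units for untreated cells, 1207 at 50 μM and 1249 at 100 μM. A small rise in intensity therefore need not be a rise in ratio. Areas of the array where many dim spots were bright on 1 array alone held 5.71% of gene spots on the CA 100 μM array, beside 0.139% on the untreated and 0.0881% on the CA 50 μM array, and members inside them are named where they occur. Of the hepatocyte and hepatoma markers, 9 of 11 were well above background in untreated cells and 10 of 11 at each dose. HNF4A was not in untreated cells and at 100 μM, and the 1 spot of TF carried an outlier flag in untreated cells and at 50 μM and was left out there, while at 100 μM it read 13078 units. Their summed intensity was 484210 in untreated cells, 505308 at 50 μM and 493234 at 100 μM, the last with TF included. Markers of leukocytes (5 of 5 above background on every array, summed intensity 1083 to 1355), endothelium (3 of 4, 793 to 1086, with KDR below background) and stroma (3 or 4 of 5, 568 to 746) were also detected, and their part in the results was not tested.

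CTNNB1 encodes β-catenin, and its probes moved apart at the lower dose. The bright probe, A_23_P29495 (NM_001904), was printed in 10 spots and read 2357 units in untreated cells, 1140 at 50 μM and 1754 at 100 μM. Its spots ran from 2239 to 2525 in untreated cells, from 1078 to 1202 at 50 μM over 9 spots and from 1691 to 1818 at 100 μM over 9 spots. The spots used did not overlap between arrays, before or after scaling. The share of other probes printed in 10 spots with such separation was not counted. After scaling the bright probe was 2.36-fold lower at 50 μM, a log2 ratio of -1.24 with an SD of 0.0846 between its spots, and all 9 spot pairs were lower. At 100 μM the log2 ratio was -0.66 with a spot SD of 0.0745, again with all 9 spot pairs lower, and the level thus lay between those of the other arrays. In bulk RNA, fewer cells with the transcript and less of it per cell cannot be told apart. The spot SD covers the error within an array and leaves out the spread between cultures, extractions and hybridisations. Counts of spot pairs share that limit, and one-sided pairs can go with small ratios. At 100 μM all 9 pairs of a TCF7 probe were higher at a log2 ratio of 0.18, while an APC probe had 4 lower and 5 higher. A different spot was left out for an outlier flag on each treated array, at 1137 units at 50 μM and at 8077 units at 100 μM, and keeping the latter gave -0.45 at 100 μM. Some spots of the probe lay in a disturbed area of the CA 100 μM array, and the ratio without them was -0.66.

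The dim CTNNB1 probe, A_33_P3421695 (NM_001098210), was printed once and read 47.5 units in untreated cells, 213.6 at 50 μM and 99.7 at 100 μM, well above background on all 3 arrays. It was 3.94-fold higher at 50 μM (log2 ratio 1.98) and 1.78-fold higher at 100 μM (0.83). For probes of its signal class the median spot SD was 0.118 and 0.132 at the respective doses. Around this spot, 74 measured neighbours had a median log2 ratio of 0.01 at 50 μM and 0 of them were 2-fold higher or lower. At 100 μM, 72 neighbours had a median of -0.01, likewise with 0 past 2-fold. The spot was in none of the disturbed areas. Normexp background correction subtracts the local background and fits a model of noise and signal to the differences over the array. It gave log2 ratios of 1.13 and 1.68 when fitted on all spots. Fitted without background-flagged spots, a refit chosen after seeing the data, it gave 1.13 and 0.31. At 100 μM the fit on all spots put 7849 of 22267 measured probes at least 2-fold higher and 7 lower. Its values at that dose, here and for other members, are to be read beside that shift across the array.

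**Figure D1:**
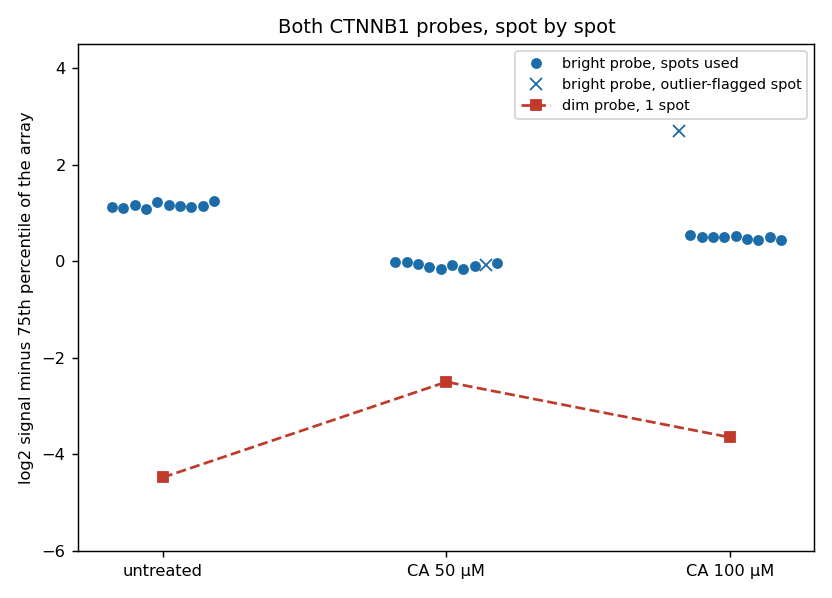
Signal of both CTNNB1 probes on the 3 arrays, as log2 intensity minus the 75th percentile of the array (vertical axis), for untreated cells, CA 50 μM and CA 100 μM (horizontal axis). Blue points are the spots of the bright probe, crosses its outlier-flagged spots and red squares the 1 spot of the dim probe. The bright probe was lowest at 50 μM, where the dim probe was highest, and both lay in between at 100 μM.

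The disagreement at CTNNB1 was set against all genes with at least 2 measured probes, a comparison chosen after its values were seen. At 50 μM, 3266 genes had such probes, and CTNNB1 was the 1 gene with a probe at least 2-fold higher and another at least 2-fold lower. The gap between its log2 ratios was 3.22, where the median gene had 0.25 and the 95th percentile was 0.85. At 100 μM the gap of CTNNB1 was 1.50, and 15 of 3237 genes (0.463%), itself included, had a gap at least as large, beside a median of 0.20. Among the 815 measured probes printed in 10 spots, 3 were lower by 2-fold or more at 50 μM and 1 was higher, and the bright CTNNB1 probe had the second lowest ratio. The sequences of the probes were not used here, and which transcripts each one binds was not tested.

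**Figure D2:**
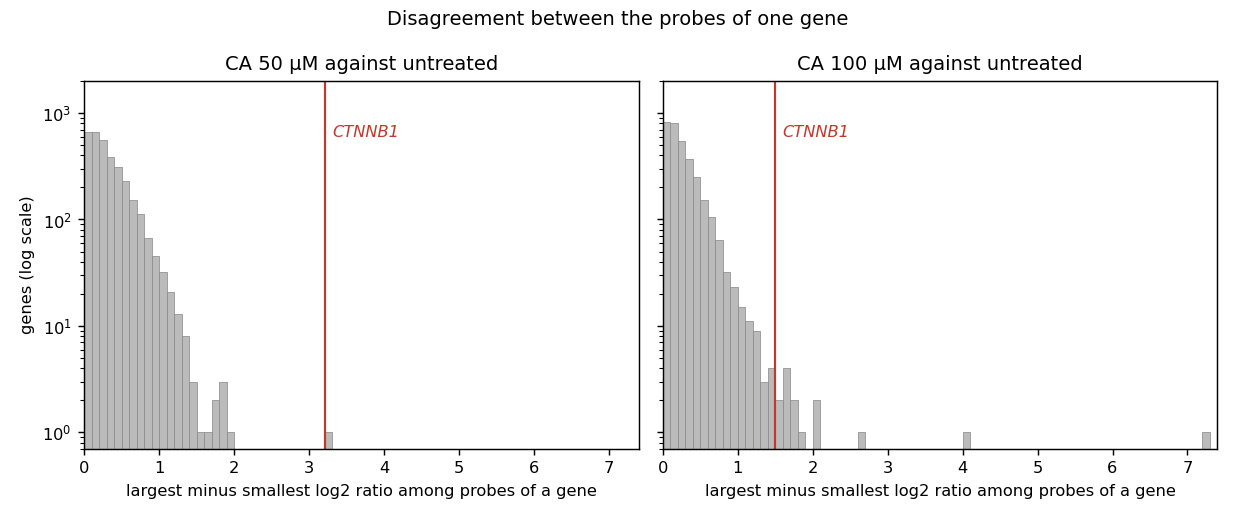
Number of genes (vertical axis, log scale) by the gap between the highest and lowest log2 ratio among their measured probes (horizontal axis), for CA 50 μM (3266 genes) and CA 100 μM (3237 genes) against untreated. The red line marks CTNNB1, at 3.22 and 1.50.

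Of the 12 member probes with a ratio at 50 μM, 1 was at least 2-fold higher and 1 at least 2-fold lower, and both were CTNNB1 probes. Over all 22471 measured probes, 0.614% were at least 2-fold higher and 0.458% at least 2-fold lower. These shares stand for 138 and 103 probes, which became 101 and 118 after quantile normalization, while both CTNNB1 calls held. At 100 μM, 0 of 12 were higher and 0 of 12 lower, where 0.638% and 0.256% of all 22267 measured probes were. These are 142 and 57 probes, and without the disturbed areas 48 were higher and 55 lower. Taking the brightest measured probe of each gene, the median log2 ratio of the 9 measured members was -0.03 at 50 μM, with 3 above 0 and 6 below, beside -0.04 over all genes. At 100 μM it was 0.05, with 5 above 0 and 4 below, beside -0.03 over all genes. With the mean over all probes of each gene, the member median at 50 μM changed sign to 0.17, beside -0.02 over all genes.

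**Figure D3:**
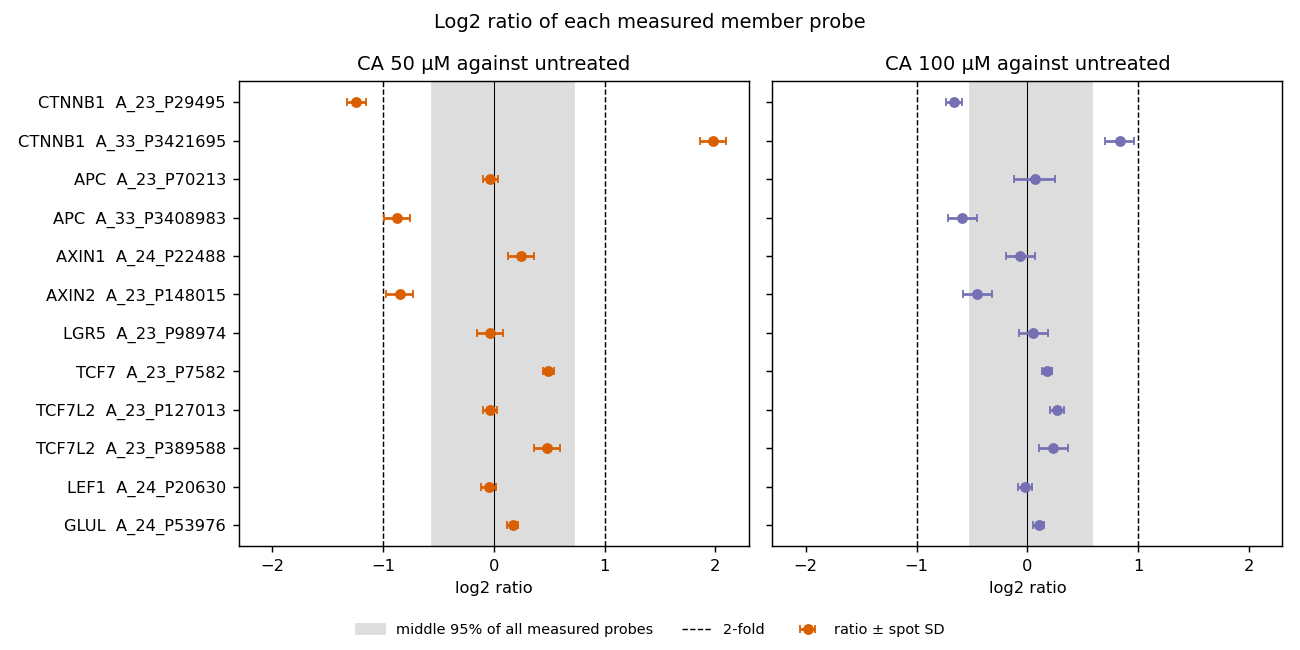
Log2 ratio of each member probe that was well above background on both arrays (horizontal axis), by gene and probe (vertical axis), for CA 50 μM and CA 100 μM against untreated. Bars are ± 1 SD between spots, of the probe itself where it was printed in 10 spots and otherwise the median SD of its signal class, and the grey band holds the middle 95% of all measured probes. The CTNNB1 probes stand on opposite sides of the 2-fold lines at 50 μM.

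In the destruction complex, the probes of APC differed from each other as well. APC, a tumor suppressor, is a scaffold that holds β-catenin for phosphorylation. Its brighter probe, A_23_P70213 (NM_000038), was printed in 10 spots and read 120.3 units in untreated cells, 134.2 at 50 μM and 148.4 at 100 μM. Its spots at 50 μM, 117 to 148 units, overlapped those of both other arrays. Before scaling, the highest spot in untreated cells, 129.62 units, was just under the lowest at 100 μM, 129.75 units. After scaling these arrays overlapped, from -3.27 to -3.03 in untreated cells and from -3.27 to -2.74 at 100 μM. Of 9 spot pairs at 100 μM, 4 were lower and 5 higher. The log2 ratios were -0.03 (spot SD 0.0674) and 0.06 (spot SD 0.189). Some of its spots lay in a disturbed area of the CA 100 μM array, and without them that ratio was -0.0045. The dimmer probe, A_33_P3408983 (NM_001127511), was printed once and read 29.7, 18.5 and 23.3 units in the same order. Its log2 ratios were -0.87 and -0.59, and 1.91% and 4.23% of all measured probes had ratios at least as large in either direction. The refitted normexp gave -0.32 and -0.31. Normexp on all spots gave -0.32 and, in the opposite direction, 1.87 at 100 μM, where that fit raised many probes of the array.

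AXIN1, the other scaffold of the complex and its limiting component, read 103.1 units in untreated cells, 139.7 at 50 μM and 116.4 at 100 μM on A_24_P22488 (NM_003502). The log2 ratios were 0.25 and -0.06, and the second was within the spot SD of its class (0.132). Both were inside the middle 95% of all measured probes, which ran from -0.56 to 0.72 at 50 μM and from -0.52 to 0.59 at 100 μM.

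AXIN2, NKD1 and LGR5 are genes that Wnt signaling is known to switch on. AXIN2 replaces AXIN1 in the complex and NKD1 binds Dishevelled, so that both act back on the pathway as inhibitors, while LGR5 is a receptor for R-spondins and a stem cell marker. Of the 2 AXIN2 probes, A_23_P148015 read 89.8 units in untreated cells, 56.8 at 50 μM and 77.3 at 100 μM. Its log2 ratios were -0.85 and -0.45, beyond the middle 95% of probes at 50 μM alone, and with the refitted normexp they were -0.39 and -0.27. Normexp on all spots gave -0.39 at 50 μM and, in the opposite direction, 1.28 at 100 μM, where that fit raised many probes of the array. On the untreated array this spot had a background flag, and on the CA 100 μM array it lay in a disturbed area, where 7 of 84 neighbours were at least 2-fold higher. The second AXIN2 probe, A_24_P298027 (NM_004655), read 3.60, 2.77 and 3.05 units and was not well above background on any array, so that it could neither repeat nor contradict the first.

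NKD1 was likewise not well above background on any array, at 2.89, 8.21 and 9.12 units on A_23_P429449 (NM_033119), and no ratio was formed. LGR5 read 178.7 units in untreated cells, 199.6 at 50 μM and 218.4 at 100 μM on A_23_P98974 (NM_003667), which gave log2 ratios of -0.03 and 0.05, both smaller than the spot SD of their signal class (0.118 and 0.132). The target genes thus showed 1 probe with a ratio outside the middle 95%, that of AXIN2, and 2 probes with no measurable signal.

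**Figure D4:**
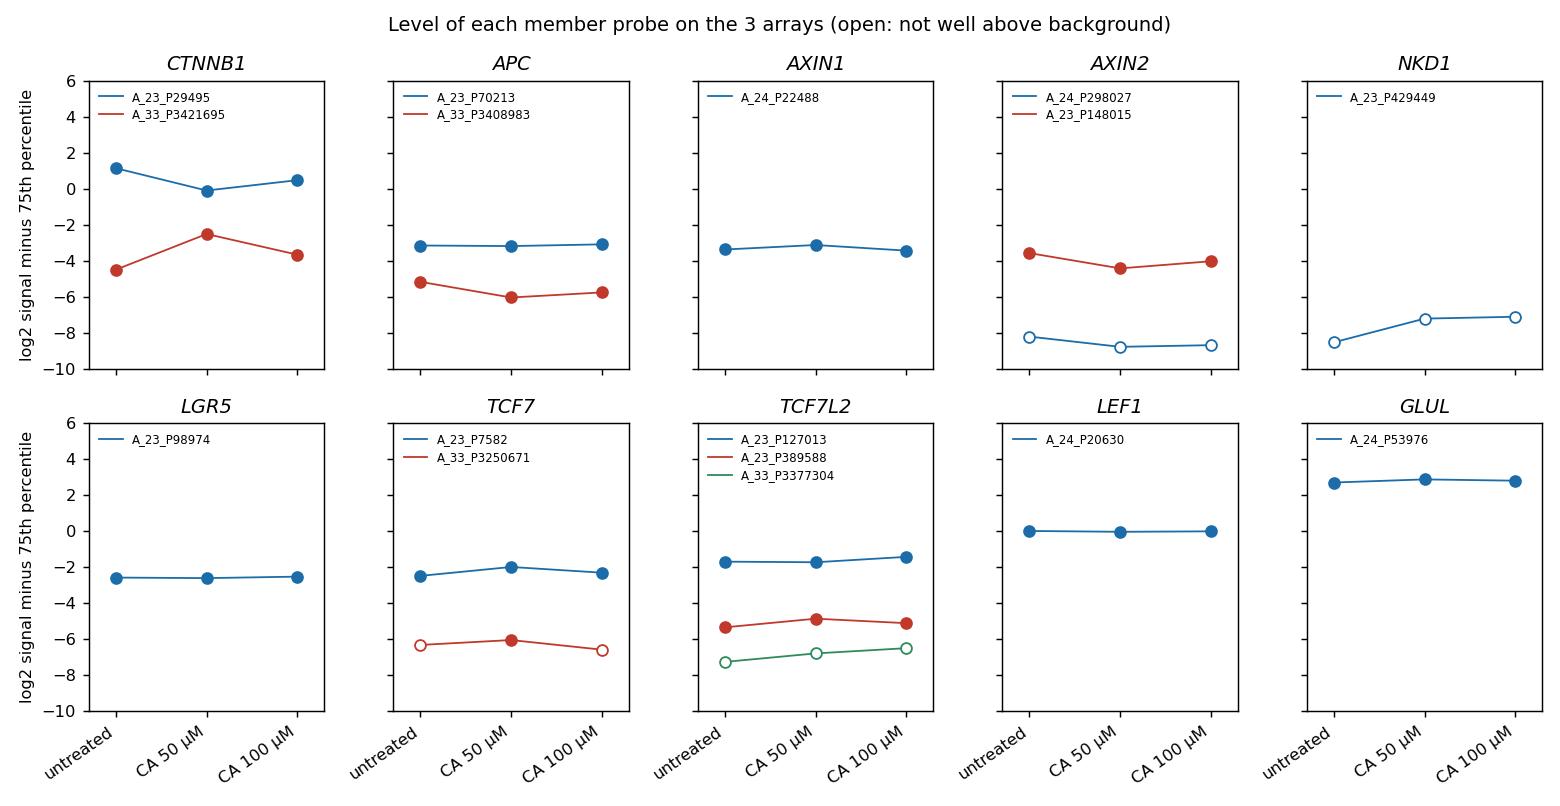
Level of each member probe on each array (horizontal axis: untreated, CA 50 μM, CA 100 μM), as log2 intensity minus the 75th percentile of the array (vertical axis), with 1 panel per gene and 1 line per probe. Filled points were well above background and open points were not. Lines are to be read along the arrays and not against each other, since probes bind with different strength.

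TCF7, TCF7L2 and LEF1 encode the DNA-binding partners of β-catenin. The brighter TCF7 probe, A_23_P7582 (NM_003202), was printed in 10 spots and read 190.8 units in untreated cells, 306.5 at 50 μM and 254.4 at 100 μM. Its spots ran from 181 to 203, from 295 to 317 and from 232 to 278 units before scaling. After scaling, those at 50 μM lay above all others. The lowest used spot at 100 μM (-2.43) was below the highest in untreated cells (-2.38), so that these arrays overlapped. How often spots of other replicated probes lay apart was not counted. The log2 ratios were 0.49 (spot SD 0.0513) and 0.18 (spot SD 0.0481), higher in 9 of 9 spot pairs at each dose. They exceeded the spread between spots, yet 11.1% and 38.4% of all measured probes had ratios at least as large in either direction. The other TCF7 probe, A_33_P3250671, read 13.3, 18.4 and 13.1 units and was well above background at 50 μM alone, where it was at least 1.21-fold higher than in untreated cells.

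TCF7L2, the main TCF factor of many epithelia, had 3 probes. A_23_P127013 (NM_030756) read 330.0 units in untreated cells, 367.6 at 50 μM and 468.0 at 100 μM, with log2 ratios of -0.03 and 0.27. A_23_P389588 read 26.3, 41.8 and 36.4 units, with log2 ratios of 0.48 and 0.23. These were 0.01 and -0.06 with the refitted normexp. With normexp on all spots they were 0.01 and 1.86, the latter at 100 μM, where that fit raised many probes of the array. The third, A_33_P3377304 (NM_001198531), was not well above background on any array, at 6.94, 10.99 and 13.90 units. Every ratio of the other two lay inside the middle 95% of all measured probes.

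LEF1 was nearly level, at 1076 units in untreated cells, 1188 at 50 μM and 1250 at 100 μM on A_24_P20630 (NM_016269). Its log2 ratios were -0.05 and -0.02, within the spot SD of their class (0.0654 and 0.0623), and changed sign with normexp, to 0.06 and 0.02 when refitted and to 0.06 at both doses on all spots. GLUL, glutamine synthetase, the classical liver target of β-catenin, was bright at 6953, 8934 and 8794 units on A_24_P53976 (NM_002065). The log2 ratios were 0.17 and 0.10, above the spot SD of their class (0.0496 and 0.0503). On all spots, normexp turned the second to -0.14. Ratios this small were common, since 53.4% and 60.2% of all measured probes had ratios at least as large in either direction.

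The other genes of the pathway were taken from 8 lists by role, with 137 genes and 171 probes, of which 28 genes had no probe well above background on any of the arrays. At 50 μM, 1 of 119 measured probes was at least 2-fold higher and 1 at least 2-fold lower. At 100 μM, 1 of 120 was at least 2-fold higher and 0 lower, besides 1 probe, of SFRP4, that was at least 2-fold higher by a bound against background, where 384 probes of the whole array were at 100 μM and 61 at 50 μM. The median log2 ratio over 100 measured genes was 0.01 at 50 μM, with 51 genes above 0, and -0.0045 at 100 μM, with 49 above 0. The list medians ran from -0.08 to 0.21 at 50 μM and from -0.09 to 0.07 at 100 μM. The upper end at each dose was the list of R-spondins and receptor turnover, where 2 of 6 genes were measured. With normexp fitted without background-flagged spots, 0 of these probes were past 2-fold in either direction at either dose.

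On the ligand side, 10 of 21 genes for Wnt ligands and their secretion had a ratio at 50 μM, with a median of -0.08, and at 100 μM it was -0.09. WNT5B was lowest at 50 μM and highest at 100 μM, at 23.0, 16.5 and 45.3 units and log2 ratios of -0.67 and 0.74. Its spot was near background at 50 μM and lay in a disturbed area of the CA 100 μM array. WNT6 was highest at 50 μM, at a log2 ratio of 0.26, and had 0.01 at 100 μM. Its 1 spot read 15.3, 20.8 and 18.1 units, near the lowest probes above background (12.2, 12.5 and 14.8 units). Among the receptors and co-receptors, measured for 15 of 17 genes with medians of 0.01 and -0.03, both ends of the list at 50 μM were the LRP co-receptors. LRP5 read 1418, 2656 and 1675 units (log2 ratios 0.72 and 0.00) and LRP6 read 5897, 3794 and 6303 units (-0.83 and -0.14). Both were thus displaced further at 50 μM than at 100 μM.

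Of the ligases that remove Frizzled from the surface, RNF43 had log2 ratios of -0.14 and 0.01. ZNRF3 had 0.56 and 0.24 on A_24_P162373, with a background flag at 50 μM, and 0.13 at 100 μM on its other probe, whose spot was flagged out at 50 μM. Secreted inhibitors were measured for 7 of 16 genes, with medians of -0.01 and -0.06. WIF1, which binds Wnt ligands, had log2 ratios of 0.21 and 0.24. DKK3, of the Dickkopf family, had -0.39 and -0.18 on its brighter probe, while its other probe was above background at the doses alone, at least 1.30-fold and 1.18-fold higher than in untreated cells. SFRP4 read 4.68 and 4.97 units without signal well above background in untreated cells and at 50 μM, and 34.1 units at 100 μM, at least 2.37-fold higher. That spot lay in a disturbed area and had a background flag.

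Of the destruction complex and its cytoplasmic partners outside the 10 genes, 18 of 19 were measured, and the medians were 0.11 and 0.02. At 50 μM 13 of these genes were above 0 and 5 below, where 6424 of all 14700 measured genes were above 0, and at 100 μM 10 were above and 8 below. PPP2R1A, a scaffold of the phosphatase PP2A, was highest at 1298, 2851 and 1961 units (log2 ratios 0.95 and 0.36). DACT1, a partner of Dishevelled, was lowest at 50 μM and had log2 ratios of -0.38 and -0.07. Nuclear partners and repressors had medians of 0.06 and 0.01 over 18 of 19 genes. BCL9L, a coactivator that binds β-catenin, read 20.4, 49.7 and 46.7 units on A_33_P3405957, with log2 ratios of 1.09 and 0.95. The 1 spot of that probe was near background in untreated cells. The brighter BCL9L probe gave 0.57 and 0.26 in the same direction. EP300, a histone acetyltransferase, had log2 ratios of 0.63 and 0.59, and CTBP2, a corepressor, had -0.25 and 0.08 on its brighter probe.

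General targets of the pathway, measured for 17 of 21 genes, had medians of -0.01 and 0.06. MMP7, a secreted protease, read 214.5 units in untreated cells, 102.6 at 50 μM and 421.5 at 100 μM, so that it was lower at 1 dose (log2 ratio -1.25) and higher at the other (0.74). TCF4 here is the gene of the E-box factor and not TCF7L2, which is often called by that name. It read 278, 575 and 688 units, with log2 ratios of 0.86 and 1.07. MYC had log2 ratios of 0.05 and 0.06, with a disturbed area touching its spots at 100 μM, and CD44 had -0.53 and -0.26. Liver targets were measured for 13 of 18 genes, with medians of -0.08 and -0.04. At 50 μM 3 genes were above 0 and 10 below, where 6424 of all 14700 measured genes were above 0. At 100 μM 6 were above and 7 below. With quantile normalization the list medians were -0.04 at 50 μM and 0.01 at 100 μM. In that list SLC1A2, a glutamate transporter, was highest at 50 μM, with log2 ratios of 0.33 and 0.20. Its 1 spot was near background, at 17.3, 24.8 and 23.5 units. EPCAM, a marker of hepatic progenitors, had -0.24 and -0.25, and its 1 spot lay in a disturbed area at 100 μM.

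**Figure D5:**
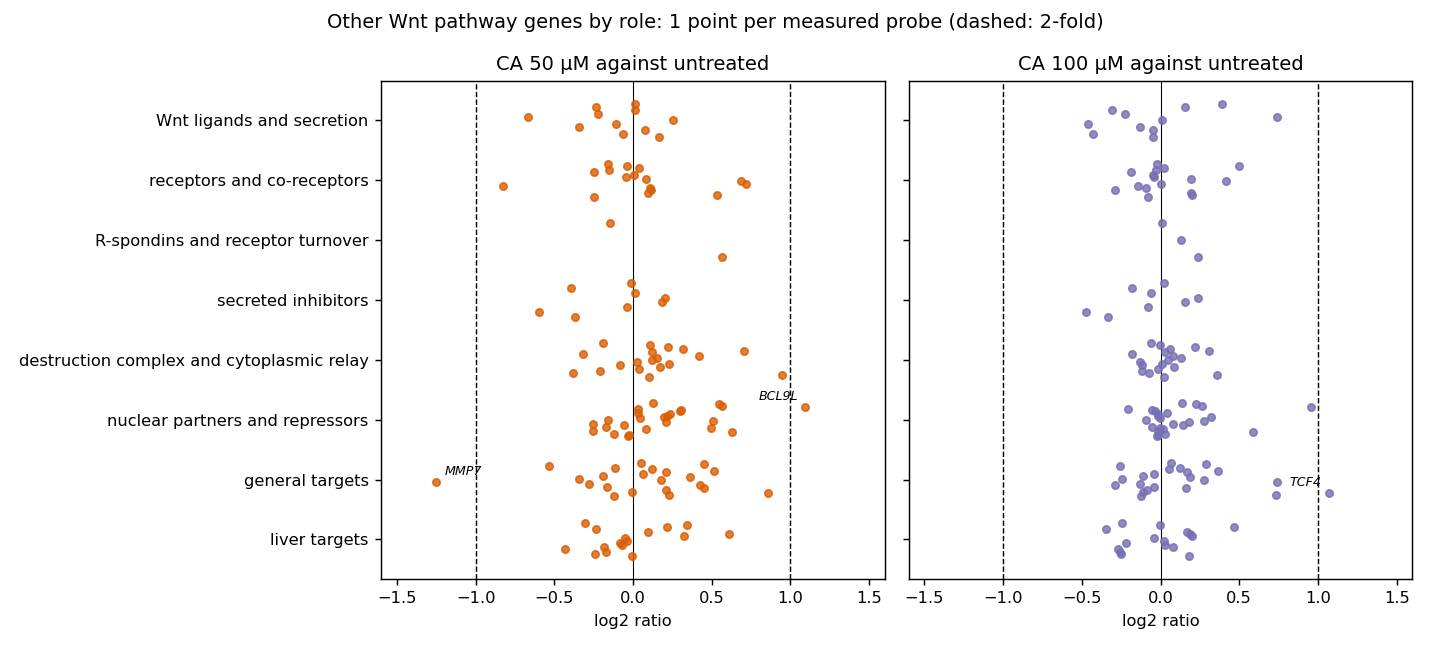
Log2 ratio of each measured probe of the 8 other Wnt pathway lists (horizontal axis), by role (vertical axis), for CA 50 μM and CA 100 μM against untreated, with 1 point per probe and dashed lines at 2-fold. MMP7 and a BCL9L probe lie past 2-fold at 50 μM and TCF4 at 100 μM.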

How the data were processed

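Total RNA of Huh7 cells was measured on Agilent human arrays, 1 for each of 3 groups, which were set by the treatment label. The authors processed the scans with Feature Extraction 11.0.1.1, per the submitters' processing notes, and the deposited spot values are intensity in arbitrary units, background-subtracted and not scaled between arrays. The authors also deposited log2 values per probe by a method not given in the sources used here. They follow the log2 processed signal (correlations of 0.99996 to 0.99998 over 22114 probes), share a median of 6.22 and were used as an alternative only. The 3 arrays share 1 scan, so that no batch could be fitted.

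Here each array was scaled by subtracting its own 75th percentile from the log2 processed signal, without control spots and outlier-flagged spots (429, 569 and 596 gene spots). The 10 spots of a replicated probe (999 probes) were averaged on the log2 scale, and 33128 probes had 1 spot. A probe needed at least 50% of spots flagged well above background to count as such. A ratio needed this on both arrays, and otherwise a bound was set from the lowest probe above background on the dim array (12.2, 12.5 and 14.8 units). Names came from RefSeq accessions (25771 of 34127 probes). Differences of 2-fold or more were counted without a test. A disturbed area was a window of 17 rows by 7 columns with at least 5 spots, and at least 25% of spots otherwise dim, that were at least 4-fold brighter and above background on 1 array.

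The 10 genes and the lists were chosen with earlier results of these data known. Named from the lists were genes with a probe past 2-fold, the highest and lowest gene of each list at 50 μM, and MYC, CD44 and EPCAM, which the study followed. One gene that this rule names is not reported here. Alternatives were quantile normalization, cyclic loess, median centring, normexp (offset 50), the deposited log2 values, other filters and the mean over probes, and leaving out saturated spots, background-flagged spots or disturbed areas. The number of arrays limits the precision. Steps were tested on simulated data. Python 3.11.15, numpy 2.4.6, pandas 2.3.3, matplotlib 3.10.9, R 4.3.3 and limma 3.58.1 were used.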

Additional observations from a re-analysis of the deposited data

How the results depend on the processing

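No paired analysis was possible because each group had 1 array, and for the same reason no replicate could be left out. The CTNNB1 calls at 50 μM held under normexp fitted on all spots (-1.19 and 1.13 on the log2 scale) and under the 11 other alternatives. Under those 11 the bright probe ranged from -1.29 to -1.19 and the dim probe from 1.13 to 1.98. At 100 μM the ranges were from -0.68 to -0.45 and from 0.31 to 0.83. Of 285 member ratios under alternatives, 245 moved by less than the spot SD of their signal class, 40 by more, and 0 called ratios reversed. The called ratios were those of CTNNB1 at 50 μM alone. Alternatives that change only the background filter leave a member ratio at its main value by construction, so those among the 245 test nothing. The deposited log2 values also nearly repeated quantile normalization, with -1.23 in both for the bright CTNNB1 probe at 50 μM. Apart from normexp fitted on all spots, signs changed for 5 of 24 ratios, those of LEF1 at both doses and of APC, LGR5 and TCF7L2 at 100 μM, each on 1 probe. That fit also turned the dim APC probe (1.87), AXIN1 (1.11), AXIN2 (1.28) and GLUL (-0.14) at 100 μM.

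Normexp fitted on all spots gave 0 probes of the wider lists at least 2-fold higher and 0 lower at 50 μM. At 100 μM it gave 6 member probes and 37 probes of the wider lists at least 2-fold higher, with median log2 ratios of 0.77 and 0.18, beside a median of 0.18 over all genes and 7849 of 22267 probes at least 2-fold higher. Fitted without background-flagged spots, an alternative chosen after seeing the data, normexp gave 0 higher and 0 lower at 50 μM and 0 higher at 100 μM in the wider lists. With probes above background on 1 array kept, the wider lists had 2 higher at 50 μM and 5 at 100 μM. Without a filter, 2 member probes were higher at 50 μM and 1 at 100 μM, and the wider lists had 5 higher and 6 lower at 50 μM, and 9 higher and 3 lower at 100 μM. Averaging all probes of a gene gave a member median of 0.17 at 50 μM. Over all probes, counts of higher and lower at 50 μM were 1074 and 1050 without a filter, 20 and 20 with the refitted normexp and 101 and 118 with the deposited log2 values, and at 100 μM 48 and 55 without disturbed areas. The cause was not tested beyond the construction of each setting. Signals near background limit NKD1, a probe each of AXIN2 and TCF7L2, and the dim probes of CTNNB1 and APC.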
